A study of Mus musculus with 10 samples.

Results

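Cells read oxygen through a short chain of proteins, and its 10 genes are described here in granulosa cells of mouse ovaries: the HIF alpha subunits Hif1a, Epas1 and Hif3a, the beta subunits Arnt and Arnt2, the prolyl hydroxylases Egln1, Egln2 and Egln3, the ubiquitin ligase subunit Vhl and the asparaginyl hydroxylase Hif1an. They were chosen by gene symbol, and all 10 were among the 35087 gene symbols of each deposited table. RNA came from wild-type, 3-week-old female C57B6/J mice, as polyadenylated transcripts of laser-captured granulosa cells amplified by GEO-seq, a protocol for very small tissue areas. The NAC group (4 libraries) had N-acetyl-l-cysteine, a cysteine donor and antioxidant, at 150 mg/kg by intraperitoneal injection on 3 consecutive days; the saline group (6 libraries) had normal saline by the same schedule. Ovaries were taken on day 4, and the labels place all libraries in batch 1. The study's title concerns HIF1 in the loss of follicles, and the comparison asks how an antioxidant changes granulosa cell transcripts.

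With oxygen, iron and oxoglutarate at hand, the Egln enzymes hydroxylate prolines of an alpha subunit, the VHL protein recognises the mark, and the subunit is degraded; Hif1an hydroxylates an asparagine that otherwise binds coactivators. When oxygen is short, the alpha subunit persists, pairs with ARNT and binds DNA at hypoxia response elements. Most of this regulation acts on protein, so transcript levels describe the parts of the system and not its activity. Granulosa cells lie inside the follicle's basement membrane without blood vessels of their own, and HIF signalling is known in the ovary from ovulation and from the corpus luteum.

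The NAC libraries held 1295412, 509945, 116461 and 1667181 estimated reads (NAC 1 to NAC 4), against 1340324 to 2488408 per library in saline. The libraries NAC 2 and NAC 3 differed from the rest: reads were found for 84.8% and 85.1% of the 10945 genes tested, against 98.8% and 99.3% in the other NAC libraries and 97.7% to 99.5% in saline. Of 12 granulosa markers, 11 or 12 had reads in every library. Their summed level was 4610 to 10600 CPM (reads scaled by library total and TMM factors) in NAC and 10200 to 38300 in saline. Most of it was Inha, at 2590 to 8220 CPM in NAC and 7610 to 32900 in saline. Hsd17b1 (131 to 483 CPM, saline 674 to 1640) and Amhr2 (53.2 to 379 CPM, saline 394 to 615) also lay lower in NAC. Kitl went the other way, with 13.7, 47.1, 72.5 and 36.0 CPM in NAC 1 to NAC 4 and 7.53 to 27.0 in saline. The groups overlapped in Foxl2 (84.0 to 189 CPM in NAC, 117 to 208 in saline) and Nr5a2 (188 to 369 CPM in NAC, 221 to 279 in saline). They also overlapped in Inhbb (338 to 1010 CPM in NAC, 302 to 2500 in saline) and Fst (348 to 757 CPM in NAC, 415 to 865 in saline). Oocyte markers summed to 294 to 1760 CPM in NAC and 1.34 to 2080 in saline, theca and stroma markers to 88.6 to 1950 in NAC and 120 to 1010 in saline, and endothelial markers to 48.3 to 207 in NAC and 28.2 to 98.5 in saline. Mural cell markers summed to 16.1 to 663 CPM in NAC and 22.1 to 327 in saline, immune markers to 0 to 92.1 CPM in NAC and 0.901 to 31.3 in saline, and erythroid markers to 0 to 843 CPM in NAC and 0 to 85.7 in saline. In such captured samples, fewer cells of a type and less RNA per cell cannot be told apart, and the part of these other cells in the values below was not tested. Nothing in the labels ties a library to an animal, so p-values measure the spread between libraries, which may be technical.

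No gene of the set passed the test of NAC against saline. Of the 8 that passed the filter for low counts, 0 passed edgeR's quasi-likelihood test at an adjusted p under 0.05, where 0.0731% of all genes tested did (0.0183% higher in NAC and 0.0548% lower), and their adjusted p-values lay between 0.273 and 0.98. DESeq2 and limma-voom called 0 of them too, where they called 3.48% and 4.39% of the genes they tested. At an unadjusted p under 0.05 there was 1 of the 8, Egln2, where 16.2% of all genes tested fell below that value. The CPM ranges of the groups overlapped in all 10 genes; they did not overlap in 5.38% of the genes tested (1.96% with NAC higher and 3.43% with NAC lower). Of the log2 folds of NAC over saline, 3 were positive and 5 negative, with a median of -0.17, beside a median of 0.02 over all genes tested. Several members were split within the NAC group, NAC 2 and NAC 3 on one side and NAC 1 and NAC 4 on the other.

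**Figure D1:**
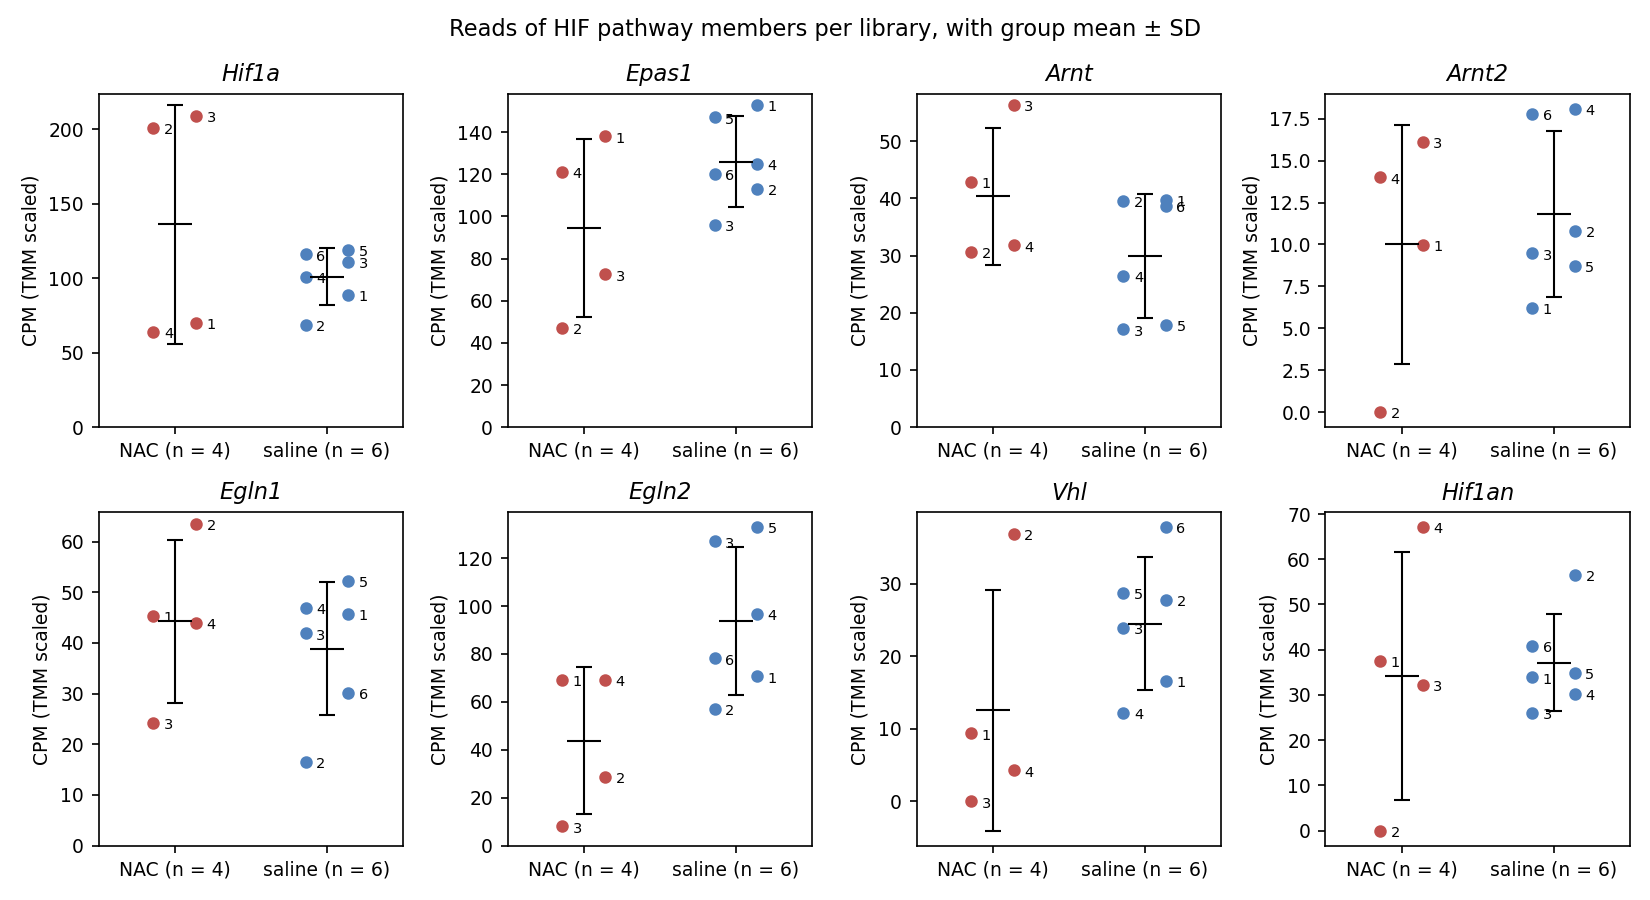
CPM of the 8 tested genes in each library (points, numbered by replicate; NAC red, saline blue), with the group mean and SD as black bars. Hif1a lies at 201 and 209 CPM in NAC 2 and NAC 3 and at 70.0 and 63.9 CPM in NAC 1 and NAC 4, with the saline libraries at 68.8 to 119, and Egln2 shows the opposite split.

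Hif1a encodes HIF-1 alpha, the oxygen-labile subunit expressed in most cell types (GRCm38 chromosome 12, 73901375 to 73947530, plus strand). Its levels were 70.0, 201, 209 and 63.9 CPM in NAC 1 to NAC 4; in saline the lowest was 68.8, the median 106 and the highest 119 CPM. NAC 2 and NAC 3 thus lay above every saline library, NAC 4 below every saline library and NAC 1 next to the lowest of them. The 2 high values rest on 98 and 26 reads. Their exact 95% binomial intervals were 163 to 245 CPM for NAC 2 and 137 to 307 CPM for NAC 3, both above the saline range. That of NAC 4 was 52.9 to 76.5 CPM and reached into the saline range. Intervals and floors given here cover counting error only, and no molecular identifiers tell amplified copies apart. The log2 fold was 0.36 (SE 0.36, 95% interval -0.40 to 1.12; edgeR's adjusted p = 0.636). Without NAC 2 it was -0.06, without NAC 3 0.04, and without NAC 2 and NAC 3 together -0.63 (edgeR unadjusted p = 0.0412, adjusted p = 0.281). The saline libraries lay close together: the coefficient of variation of Hif1a was 19.1% there, beside a median of 22.9% for the 1114 tested genes whose saline mean lay within 1.25-fold of it. NAC 2 had the highest theca and stroma marker sum of all libraries (1950 CPM) and NAC 3 the lowest (88.6 CPM). In NAC 3 only 4 of the 11 markers had reads. A link between these sums and Hif1a was not tested. In the annotation, 330 exonic bases of Hif1a are shared with the antisense gene Gm15283 and 148 with Gm49321, which lies on the same strand. Neither was among the deposited gene symbols, so reads under these names could not be examined. Whether the counting used strand is not given in the sources used here, and strand would not separate Hif1a from Gm49321.

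The promoter of Hif1a is shown because the study's title turns on this gene: the 250 bases before its RefSeq start, which lies inside the gene as GENCODE M21 draws it (build GRCm38.p6, chr12:73907617-73907866, plus strand), with the core of the hypoxia response element in capitals. ACGTG and GCGTG were searched on both strands here and in the other promoters below.
Hif1a: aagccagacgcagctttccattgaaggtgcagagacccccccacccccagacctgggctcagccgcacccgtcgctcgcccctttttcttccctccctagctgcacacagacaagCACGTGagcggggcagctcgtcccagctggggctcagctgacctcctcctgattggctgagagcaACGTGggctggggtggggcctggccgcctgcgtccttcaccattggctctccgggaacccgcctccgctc
ACGTG was found 70 and 134 bases before the start on the gene's strand and 135 bases before it on the other strand, the last pair being the overlapping readings of the palindrome CACGTG. Over all 32851 promoters of the RefSeq table, 16.6% hold ACGTG, 28.2% GCGTG and 38.6% at least 1 of these in the same window, so a match is common and is a description only.

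Epas1 encodes HIF-2 alpha, the paralogue known above all from endothelial and other specialised cells (chromosome 17, 86753700 to 86833410, plus strand). It stood at 138, 47.1, 72.5 and 121 CPM in NAC 1 to NAC 4; the saline libraries had a lowest value of 95.9, a median of 123 and a highest of 153 CPM. Here the libraries NAC 2 and NAC 3 lay below every saline library, and NAC 1 and NAC 4 lay inside the saline range. The value of NAC 2 rests on 23 reads, with an exact 95% binomial interval of 29.9 to 70.7 CPM, below the saline range. That of NAC 3 rests on 9 reads, and its interval of 33.1 to 138 CPM does not place it below saline. The log2 fold was -0.36 (SE 0.31, 95% interval -1.01 to 0.29; edgeR's adjusted p = 0.578), and 0.00 without NAC 2 and NAC 3. NAC 2 also had the highest endothelial marker sum of all libraries (207 CPM), and a link between that sum and Epas1 was not tested. Most of that sum was Emcn (86.0 CPM) and Pecam1 (55.6 CPM); Egfl7, at 24.6 CPM, lay inside the saline range, and Flt1 and Esam had 0 reads in it. The saline coefficient of variation, 17.0%, was the lowest of the tested members, beside a median of 21.6% over 829 genes of like level.

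Hif3a encodes another alpha subunit, of which some splice forms oppose the others (chromosome 7, 17031507 to 17062427, minus strand). Reads were close to absent: 6 over the NAC libraries, 5 of them in NAC 1, and 5 over the saline libraries, with at most 2 in one library. It did not pass the filter for low counts. A fit without that filter gave a log2 fold of 1.38 (SE 1.50, edgeR's adjusted p = 0.668), which rests on NAC 1.

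Levels of different genes were compared per length, with the deposited TPM, a measure of transcripts scaled to a fixed sum. Hif1a held 42.4%, 92.2%, 76.9% and 42.3% of the summed TPM of the 3 alpha subunits in NAC 1 to NAC 4, and 44.5% to 60.8% in saline, with a saline median of 52.2%. Epas1 held almost all of the rest: 54.0%, 7.83%, 23.1% and 57.5% in NAC 1 to NAC 4 and 39.0% to 55.3% in saline. In saline the pair was thus near parity, Hif1a having the higher TPM in 4 of 6 libraries, and NAC 1 and NAC 4 lay just below the saline range of the Hif1a share. The mean share of Hif1a was 63.4% ± 25.1 (SD, n = 4) under NAC, against 52.7% ± 5.97 under saline (SD, n = 6). With reads per kilobase of the longest coding transcript in place of TPM it was 58.8% in NAC and 48.1% in saline. That of Epas1 was then 40.8% in NAC and 51.7% in saline, so the order of the pair in saline depends on the measure. A share does not depend on how a library is scaled.

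**Figure D2:**
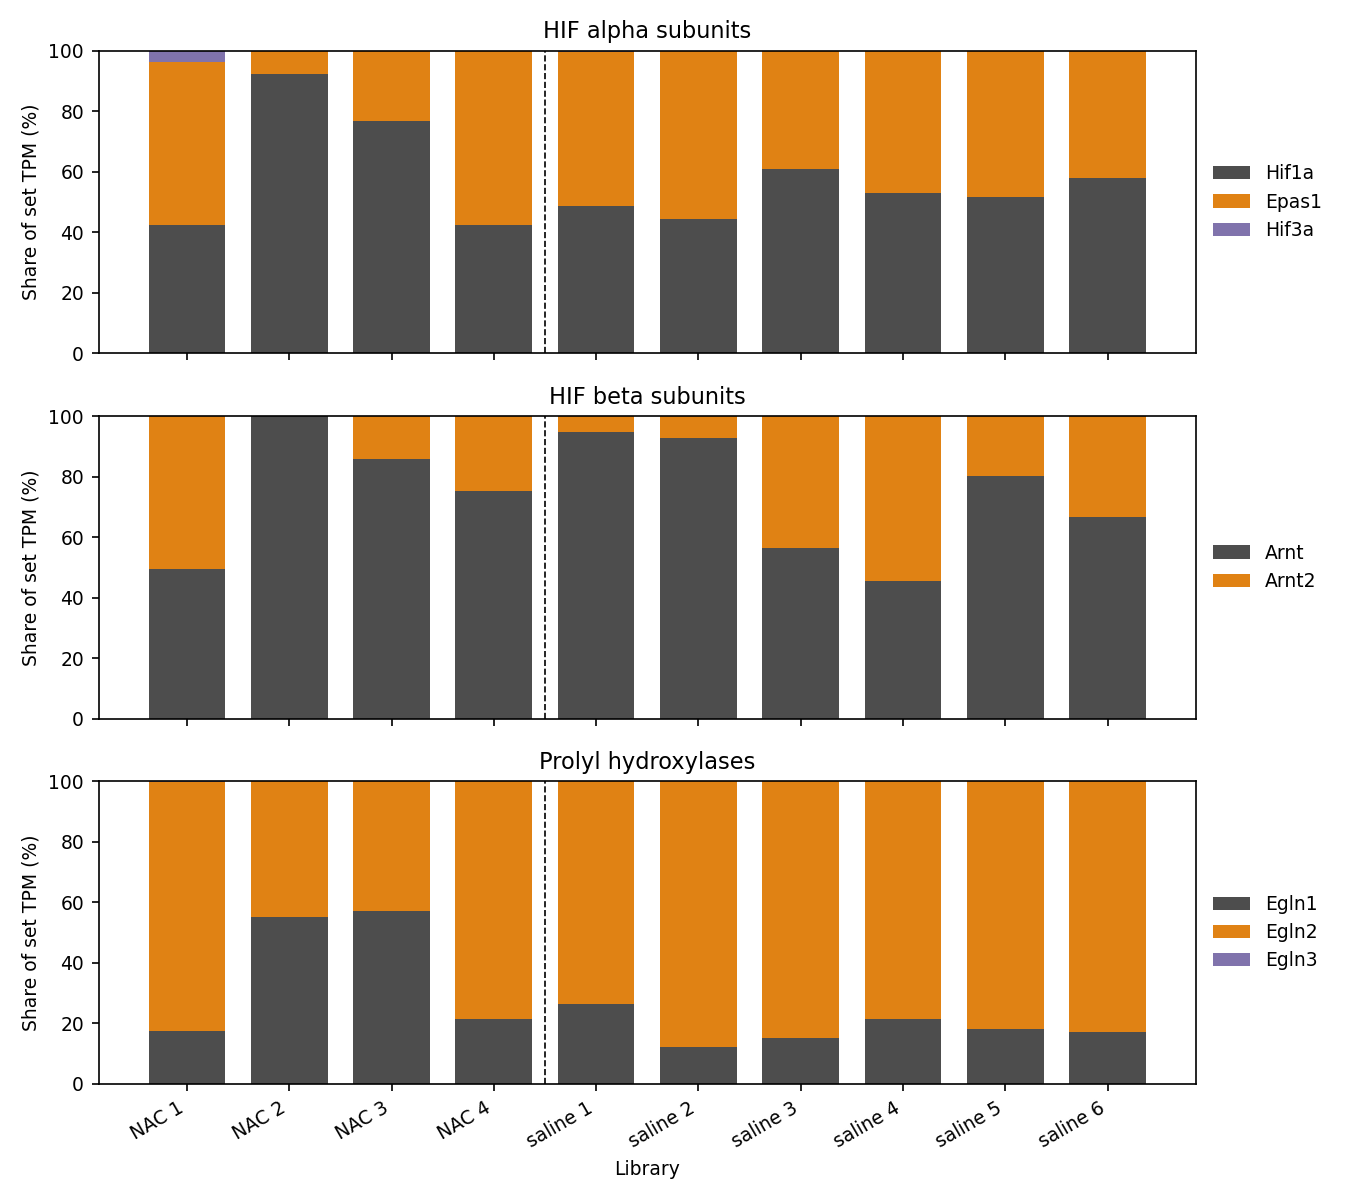
Share of each gene in the summed TPM of the alpha subunits (top), the beta subunits (middle) and the prolyl hydroxylases (bottom), for each library, with the NAC libraries left of the dashed line and saline right of it. NAC 2 and NAC 3 have the highest Hif1a shares (92.2% and 76.9%) and the highest Egln1 shares (55.0% and 57.0%) of all 10 libraries.

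The beta subunits pair with an alpha subunit to bind DNA. Arnt, the general partner that also serves the aryl hydrocarbon receptor (chromosome 3, 95434388 to 95497240, plus strand), had 42.9, 30.7, 56.4 and 31.8 CPM in NAC 1 to NAC 4 and 17.1 to 39.7 CPM in saline (median 32.6). NAC 1 and NAC 3 lay above the saline range and the others inside it. The exact 95% binomial intervals were 32.4 to 54.9 CPM for NAC 1 and 22.7 to 116 CPM for NAC 3, from 7 reads. Both reach into the saline range. Its log2 fold was 0.37 (SE 0.40, 95% interval -0.47 to 1.22; edgeR's adjusted p = 0.66). Arnt2, the paralogue best known from brain (chromosome 7, 84246278 to 84410176, minus strand), was the weakest tested member, with 9.99, 0, 16.1 and 14.0 CPM in NAC 1 to NAC 4 and 6.23 to 18.1 CPM in saline (median 10.1). The 0 reads of NAC 2 have an exact 95% binomial interval that reaches 7.55 CPM, above the lowest saline library, so they do not place NAC 2 below the saline range. The log2 fold was -0.30 with an interval of -1.87 to 1.26 (SE 0.74, edgeR's adjusted p = 0.865), so changes of more than 2-fold in either direction were not excluded at this depth. Arnt held 77.6% ± 21.3 of the TPM of both beta subunits in NAC and 72.7% ± 19.9 in saline (SD over 4 and 6 libraries). Arnt2 shares 214 exonic bases with the antisense gene Gm30873, which was not among the deposited gene symbols.

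The prolyl hydroxylases set the life of the alpha subunits. Egln2 had a median of 35.4 TPM in NAC and 46.0 in saline, Egln1 of 15.3 TPM in NAC and 12.3 TPM in saline, and Egln3 was listed at 0 in 9 of 10 libraries. Egln2 was the higher of the first pair in NAC 1, NAC 4 and every saline library, whereas Egln1 was the higher in NAC 2 (16.7 TPM, against 13.7 for Egln2) and in NAC 3 (6.83 against 5.16). Egln1, which encodes PHD2, the main oxygen sensor in most cells (chromosome 8, 124908587 to 124949324, minus strand), had 45.4, 63.5, 24.2 and 44.0 CPM in NAC 1 to NAC 4. In saline its lowest value was 16.5, the median 43.8 and the highest 52.3 CPM. NAC 2 lay above the saline range and the other NAC libraries inside it (log2 fold 0.24, SE 0.39, 95% interval -0.57 to 1.06; edgeR's adjusted p = 0.781). The exact 95% binomial interval of NAC 2 was 43.1 to 90.1 CPM and reached into the saline range.

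Egln2, which encodes PHD1 (chromosome 7, 27158658 to 27166802, minus strand), was the member with the smallest p. Its levels were 69.3, 28.7, 8.05 and 69.3 CPM in NAC 1 to NAC 4; in saline the lowest was 57.0, the median 87.5 and the highest 133 CPM. NAC 1 and NAC 4 lay in the lower part of the saline range, and NAC 2 and NAC 3 below all of it. Those low values rest on 14 reads and 1 read, with exact 95% binomial intervals of 15.7 to 48.1 CPM and 0.204 to 44.9 CPM. The log2 fold was -0.93 (SE 0.41, 95% interval -1.79 to -0.06), with an unadjusted edgeR p of 0.0377 and an adjusted p of 0.273. It stayed negative in all 23 alternative fits, from -1.25 to -0.26, with adjusted p-values of 0.191 to 0.765. Without NAC 2 and NAC 3 it was -0.48, and with GC and transcript length as offsets -0.26. Egln2 had the highest GC content of the members (62.2% of its longest transcript) and Hif1a the lowest (41.3%), and these offsets moved Hif1a to -0.35 and Egln1 to 0.92. With them Egln1 in place of Egln2 had the smallest p of the members. The unadjusted edgeR p was then 0.0479 for Egln1 (adjusted p = 0.372) and 0.423 for Egln2 (adjusted p = 0.765).

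Egln3 encodes PHD3, a hydroxylase that HIF strongly induces in many cell types (chromosome 12, 54178981 to 54203860, minus strand). There was 1 read, in NAC 1, among all 10 libraries. The 0 reads over the 6 saline libraries allow a level of up to 0.249 CPM, and no fold is given. The single read over the 4 NAC libraries lies under their joint floor of 0.777 CPM, and from a level this low in saline a fall could not be seen.

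The promoters of these 3 genes are shown because Egln3 was at or near 0 reads in every library while both related enzymes had reads in all of them. Each is the 250 bases before the RefSeq start (GRCm38.p6; all on the minus strand), at chr8:124949255-124949504 for Egln1, chr7:27166803-27167052 for Egln2 and chr12:54203875-54204124 for Egln3; capitals mark ACGTG and GCGTG on either strand.
Egln1: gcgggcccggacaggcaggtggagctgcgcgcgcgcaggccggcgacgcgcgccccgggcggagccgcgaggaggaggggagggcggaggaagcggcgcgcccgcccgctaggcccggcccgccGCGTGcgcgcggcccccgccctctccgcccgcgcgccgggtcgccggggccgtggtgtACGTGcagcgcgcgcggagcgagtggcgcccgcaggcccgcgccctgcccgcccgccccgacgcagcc
Egln2: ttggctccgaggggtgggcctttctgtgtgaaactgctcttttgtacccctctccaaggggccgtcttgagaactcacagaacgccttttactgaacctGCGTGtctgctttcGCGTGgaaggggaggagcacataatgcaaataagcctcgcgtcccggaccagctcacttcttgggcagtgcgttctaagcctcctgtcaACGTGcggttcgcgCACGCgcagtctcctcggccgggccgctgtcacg
Egln3: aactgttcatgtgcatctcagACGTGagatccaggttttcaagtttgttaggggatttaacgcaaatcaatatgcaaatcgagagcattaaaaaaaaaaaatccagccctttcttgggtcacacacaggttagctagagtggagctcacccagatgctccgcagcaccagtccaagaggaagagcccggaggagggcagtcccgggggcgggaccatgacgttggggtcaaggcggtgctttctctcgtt
Egln1 holds ACGTG 68 bases and GCGTG 126 bases before its start. The Egln2 window shown holds ACGTG at 48 and GCGTG at 34, 137 and 151 bases before its start. Egln3 holds ACGTG at 229 bases, so the gene at the floor and those with reads all hold a core. The GC content of the windows was 86.0% for Egln1, 59.2% for Egln2 and 50.8% for Egln3. Of the 10 members, 9 matched the promoter table (all but Epas1), with 10 promoters. Egln2 has another promoter there, at chr7:27165729-27165978, which holds no ACGTG and has GCGTG 116 bases before its start. At least 1 core was found in 7 of the 10 promoters, both of Egln2 among them, beside 38.6% of all promoters of the table.

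Within the hydroxylases the balance of Egln1 and Egln2 followed the same split of libraries as the alpha subunits. Egln1 held 17.3%, 55.0%, 57.0% and 21.5% of their summed TPM in NAC 1 to NAC 4 and 12.0% to 26.5% in saline (median 17.6%). NAC 1 and NAC 4 lay inside the saline range and NAC 2 and NAC 3 above it. By reads per kilobase NAC 1 (27.6%) and NAC 4 (27.1%) lay at the top of the saline range of 14.5% to 27.5%. The mean by TPM was 37.7% ± 21.2 (SD, n = 4) under NAC, against 18.4% ± 5.05 under saline (SD, n = 6). The value of NAC 3 comes from 3 reads of Egln1 and 1 read of Egln2.

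Vhl encodes the subunit of the ubiquitin ligase that binds hydroxylated HIF alpha (chromosome 6, 113623959 to 113631633, plus strand). It had 9.38, 36.9, 0 and 4.30 CPM in NAC 1 to NAC 4, from 13, 18, 0 and 8 reads; the saline libraries had 12.2 to 37.8 CPM with a median of 25.8. By CPM, 3 of the 4 NAC libraries thus lay below every saline library. The exception was NAC 2, near the top of the saline range. The floor of NAC 3 is 24.2 CPM, so its 0 does not separate it from saline libraries under that level. The exact 95% binomial interval of NAC 1 reached into the saline range. That of NAC 4 ended at 8.47 CPM, below the saline range. By TPM, NAC 1 (18.9) lay inside the saline range, NAC 2 (34.0) above it, and NAC 3 (0) and NAC 4 (2.01) below it. The placement of NAC 1 and NAC 2 thus depends on the measure. The log2 fold was -0.88 (SE 0.66, 95% interval -2.28 to 0.52; edgeR's adjusted p = 0.528). Without NAC 2 it was -2.03 (edgeR unadjusted p = 0.00393, adjusted p = 0.125) and without NAC 2 and NAC 3 -1.90 (adjusted p = 0.137), so it did not pass in these fits either. The pseudogene Vhl-ps1 had 0 reads in every library.

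Hif1an encodes FIH, the hydroxylase that blocks coactivator binding (chromosome 19, 44562850 to 44576274, plus strand). Its levels were 37.5, 0, 32.2 and 67.1 CPM in NAC 1 to NAC 4 and 26.1 to 56.5 CPM in saline, with a saline median of 34.4. By CPM, NAC 4 lay above the saline range and NAC 2 below it, while the others fell inside. The exact 95% binomial interval of the 0 reads in NAC 2 reaches 7.55 CPM, below the saline range. That of NAC 4, 55.9 to 80.0 CPM, just reaches into the saline range. By TPM, NAC 1 (20.1), NAC 3 (13.3, from 4 reads) and NAC 4 (21.9) all lay above the saline range of 4.87 to 11.2. The placement of these libraries thus depends on the measure. The log2 fold was -0.04 (SE 0.59, edgeR's adjusted p = 0.98), but its 95% interval of -1.29 to 1.20 leaves room for changes of 2-fold either way, and without NAC 2 the fold was 0.37.

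**Figure D3:**
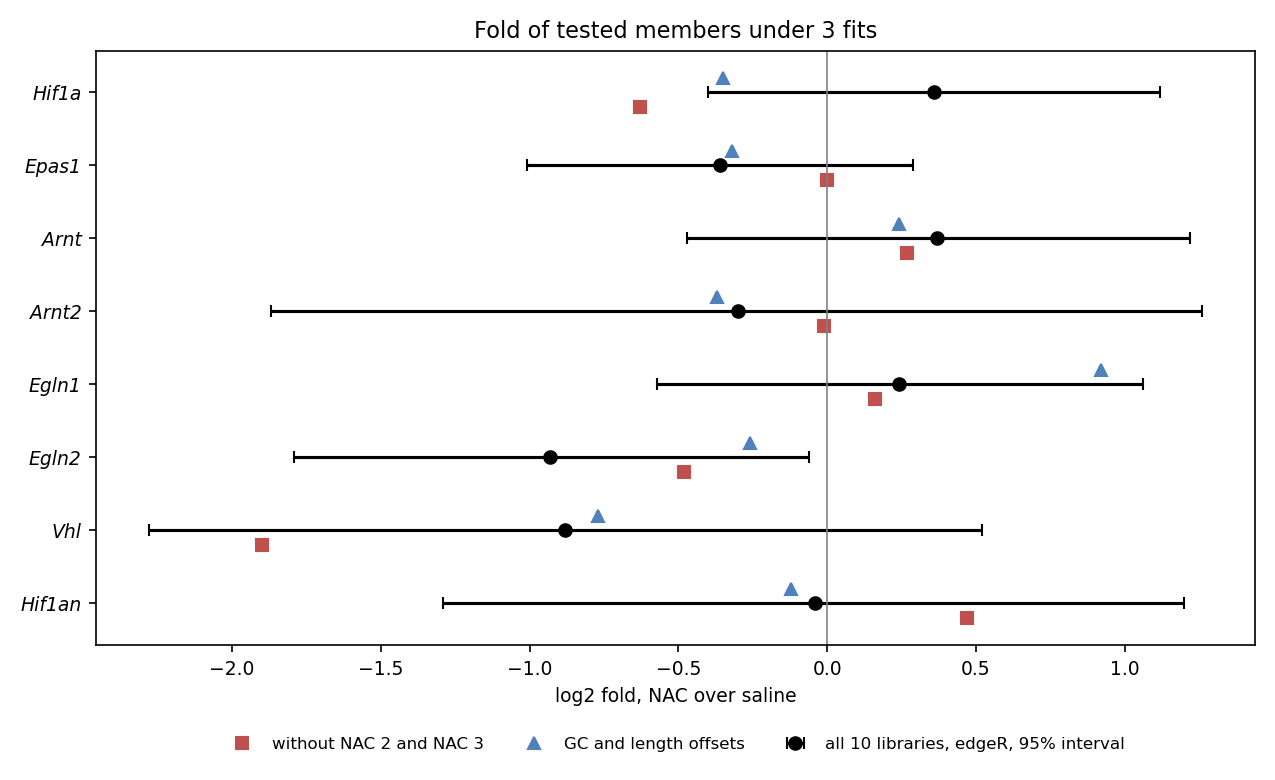
Log2 fold of NAC over saline for the 8 tested genes: all 10 libraries with the 95% interval (black), without NAC 2 and NAC 3 (red squares) and with GC and length offsets (blue triangles). Hif1a lies at 0.36, -0.63 and -0.35 in these fits, and Egln2 at -0.93, -0.48 and -0.26.

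In NAC the members ranked by median TPM as Egln2 (35.4), Hif1a (34.2), Epas1 (21.0), Hif1an (16.7), Egln1 (15.3), Arnt (14.1), Vhl (10.4), Arnt2 (3.57), Hif3a (0.0522) and Egln3 (0), and the ranges of all neighbours overlapped. In saline the order was Egln2 (46.0), Hif1a (27.6), Epas1 (23.6), Egln1 (12.3), Vhl (10.9), Hif1an (7.95), Arnt (7.77), Arnt2 (3.62), Hif3a (0.0711) and Egln3 (0). Here the ranges of neighbours were apart at 3 places: below Egln2, below Epas1 and below Arnt2. By mean saline TPM, Egln2 stood at the 76.5th percentile of the genes tested, Hif1a at 62.7, Epas1 at 60.1 and Arnt2 at 11.1. Egln2 exceeded Hif1a in 2 of 4 NAC libraries, NAC 1 and NAC 4, and in 6 of 6 saline libraries.

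TPM depends on which transcripts the reads were assigned to, and this can be read from the files: the ratio of reads to TPM, scaled on Egln1, which has a single annotated transcript, gives the effective transcript length behind each value. For Epas1 it was 5003 to 5098 bases in NAC and 5073 to 5099 in saline, a steady reading. For Hif1a it was 3291, 1822, 4342 and 3665 bases in NAC 1 to NAC 4 and 3083 to 3876 in saline, where annotated coding transcripts span 1759 to 4724 bases. The short reading of NAC 2 raises its TPM (96.1) relative to its CPM. For Vhl it was 549, 946 and 2569 bases in NAC 1, NAC 2 and NAC 4. In saline it was 993 bases in saline 1, 1760 in saline 4 and 2567 to 2582 in the other saline libraries. The coding transcript of Vhl has 2792 bases and the other annotated Vhl transcripts are shorter, so in NAC 1, NAC 2, saline 1 and saline 4 part of the reads were assigned to those. For Hif1an the lengths were 2061, 2251 and 3676 bases in NAC 1, NAC 3 and NAC 4 and 3336 to 5971 in saline, with a coding transcript of 6194 bases and a retained-intron transcript as the other. The lengths of the beta subunits swung as widely. For Arnt2 they were 750, 5741 and 3697 bases in NAC 1, NAC 3 and NAC 4 and 2054 to 5823 in saline, and for Arnt 2755 to 3984 in NAC and 1197 to 4000 in saline, and they enter the shares and the ranking by TPM above. Egln2 had 1084, 1831, 1450 and 1456 bases in NAC 1 to NAC 4 and 1585 to 1889 in saline, and in NAC 1 its TPM (70.6) was above every saline library while its CPM was inside their range. With reads per kilobase in place of TPM, the mean share of Egln2 among the hydroxylases was 56.1% in NAC and 80.4% in saline, and by TPM it was 62.2% in NAC and 81.6% in saline. These assignments rest on few reads per library and were not tested.

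**Figure D4:**
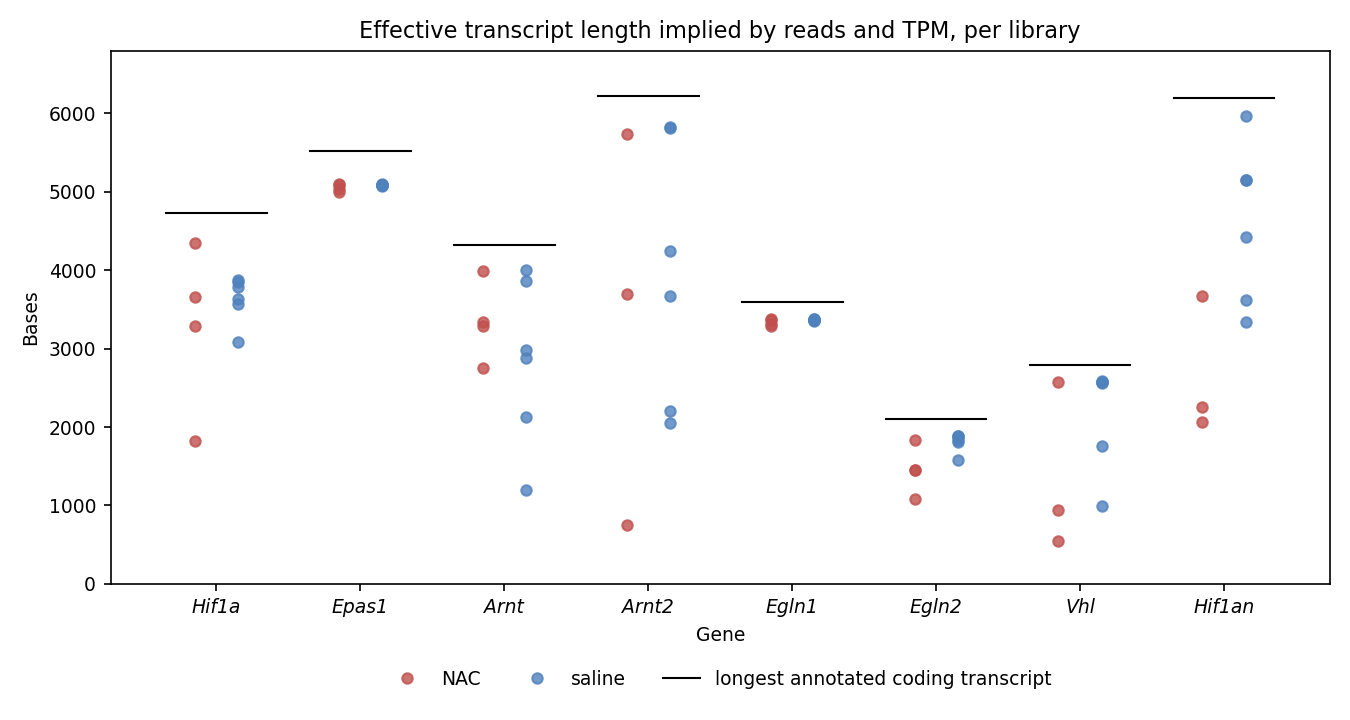
Effective transcript length in bases implied by reads and TPM in each library with reads (NAC red, saline blue), and the longest annotated coding transcript (black line). Epas1 stays between 5003 and 5099 bases, while Vhl lies between 549 and 2582, Arnt between 1197 and 4000 and Arnt2 between 750 and 5823 bases.

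Other genes of oxygen sensing were described in 5 lists with 58 genes, of which 47 were tested. None passed edgeR's test at an adjusted p under 0.05; at an unadjusted p under 0.05 there were 5 higher and 2 lower in NAC, where 7.82% and 8.34% of all genes tested were. DESeq2 called 2 of them and limma-voom 1, where these tools called 3.48% and 4.39% of all genes they tested. The groups did not overlap in 1 of the 47, Ruvbl1, where they did not overlap in 5.38% of all genes tested.

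The ligase partners of VHL are Elob, Eloc, Cul2 and Rbx1; all 4 folds were positive, with a median of 0.26. Eloc, which encodes elongin C, had 51.9, 170, 129 and 85.3 CPM in NAC 1 to NAC 4 and 42.0 to 72.0 CPM in saline. Its log2 fold was 0.98 (SE 0.33, edgeR's adjusted p = 0.18). NAC 1 lay inside the saline range and the others above it, and the fold was 0.32 without NAC 2 and NAC 3. Cul2, the scaffold, had a log2 fold of 0.46 and Rbx1, the RING subunit, of 0.07; both turned negative in some fits (3 and 8), to -0.29 and -0.16 without NAC 2 and NAC 3. The median of this list was -0.10 without NAC 2.

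Among 13 genes that act on the stability of HIF or of the hydroxylases, 7 folds were positive and 6 negative (median 0.02). Gsk3b, a kinase that promotes HIF-1 alpha degradation, averaged 124 ± 27.6 CPM across the 4 NAC libraries and 85.1 ± 19.2 CPM across the 6 saline libraries (SD). Its log2 fold was 0.56 (edgeR's adjusted p = 0.318), and 0.07 with GC and length offsets. Stub1, which encodes the ubiquitin ligase CHIP, averaged 140 ± 130 CPM in NAC and 285 ± 50.3 CPM in saline (SD; log2 fold -0.95, edgeR's adjusted p = 0.404). NAC 2 and NAC 3 were the low libraries of Stub1, at 6.14 and 72.5 CPM, and without them its fold was -0.29. Rack1, which competes with HSP90 for HIF-1 alpha, averaged 1040 ± 282 CPM in NAC and 1400 ± 177 CPM in saline (SD; log2 fold -0.42, edgeR's adjusted p = 0.423).

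Of 9 tested co-regulators of HIF transcription, 5 folds were positive and 4 negative (median 0.02). Ruvbl1, which encodes the ATPase pontin, had 117, 73.7, 105 and 118 CPM in NAC 1 to NAC 4 and 195 to 305 CPM in saline. All NAC libraries lay below all saline libraries, as in 3.43% of the genes tested. Its log2 fold was -1.16 (SE 0.26, edgeR's adjusted p = 0.0754), negative in all 23 alternative fits and -1.02 without NAC 2 and NAC 3. Without the filter for low counts, where 1.06% of genes were called, its adjusted p was 0.0455 in edgeR, and it was 0.00307 in DESeq2 and 0.0314 in limma-voom. Crebbp, a histone acetyltransferase recruited by HIF, averaged 182 ± 70.5 CPM in NAC and 113 ± 25.5 CPM in saline (SD). Its log2 fold was 0.69 (edgeR's adjusted p = 0.244), and that of Cdk8, a mediator kinase gene, was 0.79 (edgeR's adjusted p = 0.37).

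Other oxygen-dependent dioxygenases, mainly histone and DNA demethylating enzymes, had 19 tested members, 12 positive and 7 negative, with a median of 0.13. Riox1, a ribosomal oxygenase gene, had 18.0, 4.10, 0 and 11.3 CPM in NAC 1 to NAC 4 and 14.5 to 69.8 CPM in saline (log2 fold -1.89, SE 0.56, edgeR's adjusted p = 0.134). NAC 1 lay above saline 1, the lowest saline library, and NAC 2 and NAC 4 had lower values, while the 0 reads of NAC 3, with a floor of 24.2 CPM, do not place it; DESeq2 gave an adjusted p of 0.041. Tet2, a DNA demethylase gene, averaged 28.4 ± 17.1 CPM in NAC and 12.7 ± 5.16 CPM in saline (SD), and Kdm4c, a histone demethylase gene, averaged 32.7 ± 19.9 CPM in NAC and 12.2 ± 5.24 CPM in saline. Their log2 folds were 1.28 and 1.36, with edgeR adjusted p-values of 0.233 and 0.302, and that of Kdm4c turned to -0.19 in 1 alternative fit. Of 11 factors of the bHLH-PAS family, to which the HIF subunits belong, 2 passed the filter: Clock (log2 fold 0.56) and Arntl2 (log2 fold 0.55), both circadian factors, with edgeR adjusted p-values of 0.48 and 0.678. The sign of Clock turned in 1 alternative fit and that of Arntl2 in 2, down to -0.21 and -0.36.

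**Figure D5:**
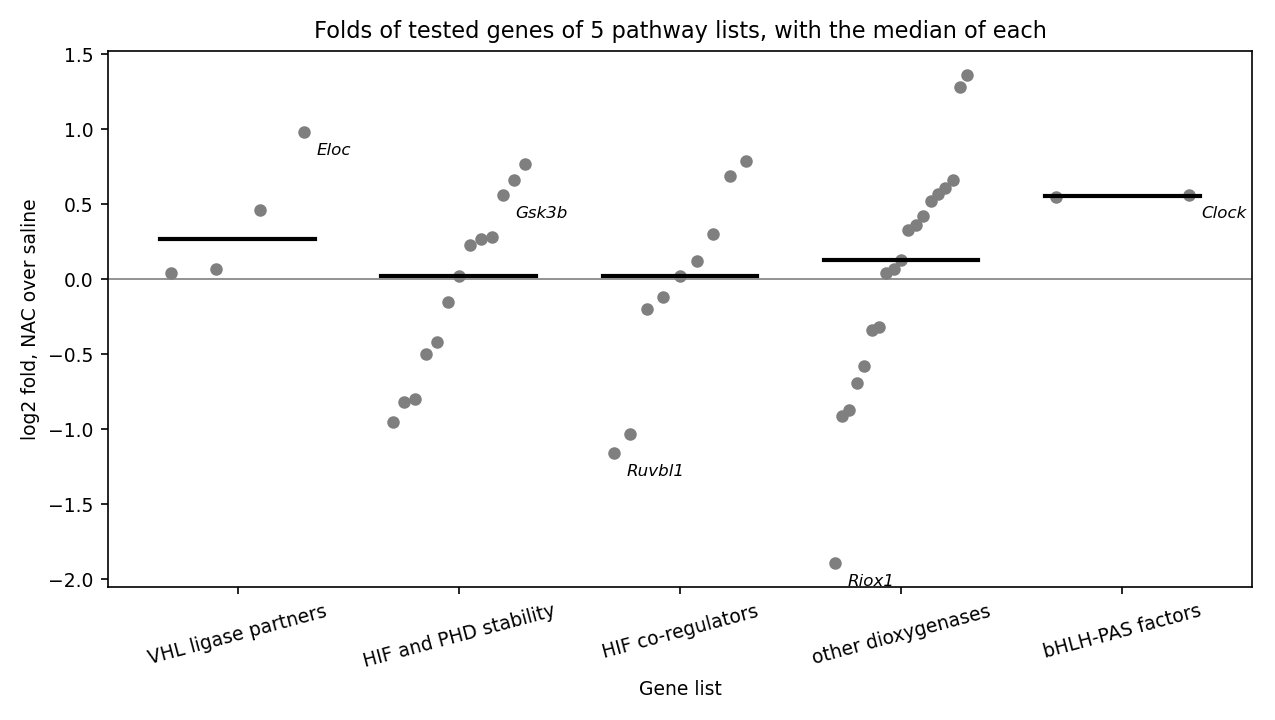
Log2 fold of NAC over saline for each tested gene of the 5 lists (points) and the median of each list (bar); the gene with the smallest p in each list is named. Folds run from -1.89 (Riox1) to 1.36 (Kdm4c) and the list medians from 0.02 to 0.55.

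Among 9563 other genes averaging at least 10 CPM, those whose log2 CPM followed Hif1a most closely over the 10 libraries were Ccdc127 (Pearson r = 0.971), Cpped1 (0.951), Sh3bgrl (0.948), Dld (0.946) and Rps27l (0.945). Ccdc127 had 37.0, 92.1, 105 and 33.3 CPM in NAC 1 to NAC 4 and 31.1 to 52.3 in saline, the same split as Hif1a. Over the 6 saline libraries alone, r was 0.928 for Ccdc127, 0.911 for Dld and 0.577 to 0.776 for the other 3. The lowest r values over 10 libraries were those of Hist1h1b (-0.959), Inf2 (-0.953), Mnt (-0.951), Jag2 (-0.948) and Bag6 (-0.946); Inf2, Mnt and Jag2 had 0 reads in NAC 2 and NAC 3. The libraries behind these values also differ in depth and in the share of genes detected, and the correlations are given as descriptions.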

How the data were processed

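The authors deposited 1 table per library with estimated counts (fractional where a read fits several transcripts) and TPM, per the file headers. The submitters' processing notes name Salmon and GRCm38; versions and settings: not given in the sources used here. Rows without a symbol, with 0.496% to 0.638% of reads, entered neither library sizes nor tests. Counts were rounded, and edgeR 4.0.16 (R 4.3.3) ran its quasi-likelihood test (TMM factors, default filter for low counts, robust estimation) over 10945 genes, with Benjamini-Hochberg adjustment over all of them and a threshold of 0.05. Log2 folds are NAC over saline, and SE was taken from the fold and its F statistic. The lengths deposited beside the TPM do not give the TPM back from the reads for genes with several transcripts, so effective lengths were derived from reads and TPM. Levels of a gene in a group are CPM with mean ± SD.

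The members, lists, rules and alternatives were chosen with earlier results of these data known. Besides the 10 members, the text names up to 3 tested genes with the smallest p from each list and the 5 genes most and least like Hif1a. Of the markers it names the most abundant or defining ones, and Amhr2 and Kitl for their direction. Alternatives were DESeq2 1.42.0, limma-voom with quality weights (limma 3.58.1), limma on log2(TPM + 1) or log2(TPM + 0.1), scaling by RLE factors or by library size alone, no filter, a filter of 10 CPM in 4 libraries, offsets for GC content and transcript length (mgcv 1.9.3), thinning to the shallowest library, each library left out, NAC 2 and NAC 3 left out, and the replicate number as a block. Added after seeing the data were the same libraries without the block and reads per kilobase. Gene positions and transcripts are from GENCODE M21 (GRCm38) and promoters from RefSeq. Pairs of replicates differed by more than sampling noise.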

Additional observations from a re-analysis of the deposited data

Results flagged for a closer look

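Among 53 groups of values examined, 4 held a library far from the others of its group, where chance flags about 1 in 20 groups. That rate need not hold for groups of very few reads, such as those of Hif3a and Egln3. Hif3a stood at 3.61 CPM in NAC 1, with the next NAC library at 0.537, and at 1.38 CPM in saline 1, with the next saline library at 0.488; these values rest on 5 reads and 2 reads. Egln3 stood at 0.721 CPM in NAC 1, from 1 read, and at 0 in the other NAC libraries. Kdm4c, a histone demethylase gene, stood at 3.22 CPM in NAC 4, with the next NAC library at 40.3. These values were not followed further.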

How the results depend on the processing

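No member passed in any of the 23 alternative fits. Folds of Epas1, Arnt, Egln1, Egln2 and Vhl did not change sign wherever they were tested, with ranges of -0.65 to 0.00, 0.15 to 0.52, 0.04 to 0.92, -1.25 to -0.26 and -2.08 to -0.59. Hif1a turned to -0.35 with GC and length offsets, -0.31 with limma-voom and -0.63 without NAC 2 and NAC 3; it was -0.06 to 0.51 with single libraries left out, negative without NAC 2. Hif1an turned to 0.16 with library size alone, 0.39 with limma-voom, 0.02 on log2(TPM + 1) and 0.47 without NAC 2 and NAC 3; it was -0.77 to 0.37 with single libraries left out, positive without NAC 2 or saline 2. Arnt2 turned to 0.01 on log2(TPM + 1), and was -0.72 to 0.09 with single libraries left out, positive without NAC 2. The cause was not tested. Thinning to the shallowest library left 3 members in the test, and it left too few reads for Arnt, Arnt2, Egln1, Vhl and Hif1an. Library size alone brought the median fold over all genes to 0.19, beside 0.02, and the replicate block and log2(TPM + 0.1) to -0.14; leaving out NAC 1 gave -0.11.

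Over all genes 8 were called. The count was 226 without a filter, 15 with GC and length offsets, 422 by DESeq2, 481 by limma-voom, 13 on log2(TPM + 1), 78 after thinning and 2 without NAC 2 and NAC 3. Of these, higher calls were 25.0% of the 8, 41.6% without a filter, 44.1% by DESeq2, 52.0% by limma-voom, 44.9% after thinning and 13.3% with GC and length offsets. With single libraries left out it was 1 to 58: 58 without NAC 1, 39 without NAC 2, 22 without saline 1, 5 without saline 2, 2 without saline 4 and 1 without NAC 3, NAC 4, saline 3, saline 5 or saline 6. With the replicate block over replicates 1 to 4 it was 1, and without the block over the same libraries 1. Same-numbered libraries deviated together with r of -0.008 to 0.196, and NAC 4 alone correlated best with its own number. So few pairs cannot decide whether same-numbered libraries share more than a number. Among the other pathway genes 0 were called, against 1 without a filter, 2 by DESeq2 and 1 by limma-voom. The median of the stability list was -0.31 with GC and length offsets, -0.27 by limma-voom, -0.35 over 7 genes after thinning, -0.29 without NAC 2 and NAC 3 and -0.24 to 0.10 with single libraries left out. That of the dioxygenases was 0.30 with library size alone, -0.18 by limma-voom, -0.01 on log2(TPM + 0.1), 0.75 over 3 genes after thinning, -0.03 without NAC 2 and NAC 3 and -0.12 to 0.20 with single libraries left out. That of the VHL partners was -0.15 by limma-voom and -0.10 to 0.36 with single libraries left out, that of the co-regulators -1.0 over 3 genes after thinning and -0.14 to 0.15 with single libraries left out, and that of the bHLH-PAS factors 0.13 with GC and length offsets and 0.34 to 0.60 with single libraries left out. Thinning left 0 bHLH-PAS factors to test. The shallowest library set the depth limit: 3 reads there are 24.2 CPM, above the saline median of Arnt2 and close to that of Vhl.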
